A study of Mus musculus with 12 samples.

Results

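Collagens, the enzymes that cut them, the inhibitors of those enzymes and the enzymes that cross-link them were followed across the livers of 12 mice. The members were taken by symbol: every gene of the deposited count table named as a collagen chain (Col), a matrix metalloproteinase (Mmp), a tissue inhibitor of metalloproteinases (Timp), an ADAMTS protease (Adamts) or a lysyl oxidase (Lox, Loxl). This gave 67 genes of the 15846 in the table, namely 33 collagen chains, 13 Mmp, 3 Timp, 13 Adamts and 5 lysyl oxidase genes. The rule reads symbols and uses no measured value, but the families were chosen with earlier results of these data known. Of these, 62 passed a filter on low counts and were tested, while Mmp9, Col7a1, Col17a1, Col4a6 and Col8a2 stayed under it.

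RNA from whole liver of C57BL/6 mice aged 5 months was sequenced in 4 groups of 3 mice. The groups were the Shp knockout labelled Shp Hep-/- on the HFCF diet (KO HFCF), the same genotype on chow (KO chow), wild type on HFCF (WT HFCF) and wild type on chow (WT chow). How the deletion was made and what HFCF contains are not given in the sources used here. The series compares the genotypes and the diets in the setting of fatty liver disease with inflammation.

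Collagens are made of 3 chains wound into a triple helix, in which glycine recurs at a fixed spacing. Fibrillar collagens of types I and III form the scar of a fibrotic liver, and in liver they come mainly from stellate cells and portal fibroblasts. Collagen IV builds basement membranes, collagen VI forms beaded filaments around cells, and FACIT collagens sit on the surface of fibrils. Lysyl oxidases cross-link the fibrils, metalloproteinases degrade them, Timp proteins block the metalloproteinases, and several ADAMTS enzymes trim procollagens or cut proteoglycans.

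The glycine repeat is the sequence that makes a chain a collagen, and the fibrillar chains hold far longer runs of it than the other classes, most of whose ranges overlap with another class. In the coding sequences (GENCODE M21 transcripts), the longest unbroken run of Gly-X-Y codon triplets held 216 to 344 repeats in the 9 fibrillar chains, with a median of 338. It held 39 to 66 repeats in the 6 collagen IV chains, 42 to 87 in the 4 collagen VI chains, 32 to 52 in the 4 FACIT chains and 30 in both multiplexins. The stretches of 72 bases shown here lie at coding bases 502 to 573 of Col1a1 (chromosome 11), 289 to 360 of Col1a2 (chromosome 6) and 490 to 561 of Col3a1 (chromosome 1). These are the 3 chains with the largest diet responses among the collagens in WT livers. Capitals mark the first 3 bases of each unit of 9, the glycine codon.
Col1a1: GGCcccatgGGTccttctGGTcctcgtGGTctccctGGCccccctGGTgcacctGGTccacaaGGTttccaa
Col1a2: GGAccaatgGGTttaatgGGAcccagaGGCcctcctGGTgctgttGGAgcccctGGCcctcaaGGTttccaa
Col3a1: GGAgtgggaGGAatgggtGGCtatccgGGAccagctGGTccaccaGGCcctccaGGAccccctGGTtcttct

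The 250 bases before the transcription start of 3 members of different roles are shown next, because a collagen, a collagenase and an inhibitor that rose together in KO chow livers can then be read side by side; they were picked after their values were seen. They are the RefSeq sequences on GRCm38.p6, on the strand of the gene: Col1a2 at chr6:4505368-4505617, Mmp13 at chr9:7272264-7272513 and Timp1 at chrX:20869916-20870165, all on the plus strand. For Col1a2 the RefSeq start lies inside the gene span given in the deposited table. Capitals mark 4 motifs searched on both strands, none of which contains another. They were the CCAAT box spelled CCAAT, the TATA box spelled TATAAA, the GC box spelled GGGCGG and the AP-1 motif spelled TGANTCA.
Col1a2: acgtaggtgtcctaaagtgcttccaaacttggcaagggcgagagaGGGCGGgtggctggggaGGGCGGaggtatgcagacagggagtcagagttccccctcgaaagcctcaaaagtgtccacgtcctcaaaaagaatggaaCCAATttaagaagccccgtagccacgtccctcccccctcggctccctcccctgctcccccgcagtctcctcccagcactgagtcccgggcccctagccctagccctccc
Mmp13: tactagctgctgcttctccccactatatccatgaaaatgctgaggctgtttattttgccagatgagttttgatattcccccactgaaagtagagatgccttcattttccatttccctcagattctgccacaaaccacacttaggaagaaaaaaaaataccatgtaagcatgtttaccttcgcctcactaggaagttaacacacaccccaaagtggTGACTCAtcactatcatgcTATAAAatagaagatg
Timp1: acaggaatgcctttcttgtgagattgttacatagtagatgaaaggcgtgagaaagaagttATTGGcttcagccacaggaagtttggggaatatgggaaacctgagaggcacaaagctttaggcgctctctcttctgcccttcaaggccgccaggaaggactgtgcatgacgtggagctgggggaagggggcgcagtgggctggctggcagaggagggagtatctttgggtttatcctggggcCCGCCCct

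Col1a2 held a GC box beginning 205 and another 188 bases before the start, and a CCAAT box beginning 109 bases before it. Mmp13 held the AP-1 motif 35 bases and the TATA box 16 bases before the start. Timp1 held a CCAAT box 190 bases and a GC box 8 bases before the start, both on the opposite strand. Windows were found for 48 of the 67 members. The GC box was present in 31 of them (64.6%), against 32.9% of all 27025 mouse windows. The CCAAT box was present in 14 (29.2%, against 34.5%), the TATA box in 7 (14.6%, against 12.97%) and the AP-1 motif in 2 (4.17%, against 6.87%). The members' windows were those nearest the deposited gene start, whereas for other genes the first listed window was taken. The mouse windows were also not matched to the members by gene type, so these shares are not compared like for like. A match of letters is a description of the window and says nothing of binding.

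The deleted gene and the libraries were looked at before the members. Nr0b2, the gene of the nuclear receptor Shp, stood at 0.509, 0.210 and 0.394 CPM in KO HFCF livers and 0.775, 0.552 and 1.01 CPM in KO chow livers. It stood at 47.6, 49.6 and 53.4 CPM in WT HFCF livers and 49.3, 22.4 and 31.0 CPM in WT chow livers, above every KO liver. CPM are counts scaled to library size with TMM factors. Libraries held 13967116 to 18324134 counts. WT HFCF replicate 1 stood apart from its group: chi-square divided by its degrees of freedom was 32.2 and 34.4 when its counts were set against those of the other 2 livers, and 11.2 between those 2. The tested members were lowest in KO HFCF replicate 2 among the livers of its group for 41 of 62 genes, and lowest in WT HFCF replicate 3 for 34 of 62. The median coefficient of variation of the 62 members was 19.9% in KO HFCF, 12.7% in KO chow, 20.7% in WT HFCF and 16.9% in WT chow livers. For the 9 fibrillar collagens it was 24.3% in KO HFCF, 8.61% in KO chow, 36.8% in WT HFCF and 16.8% in WT chow livers.

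Per gene length, in the deposited FPKM values, Col18a1 was by far the highest member in all 4 groups. Col18a1 encodes collagen XVIII, a multiplexin that hepatocytes make and from which endostatin is released. It averaged 108 ± 7.97 FPKM in KO HFCF, 105 ± 7.01 in KO chow, 103 ± 9.87 in WT HFCF and 102 ± 4.47 in WT chow livers (SD, n = 3). Mmp19 ranked next at 22.8 ± 2.59 FPKM in KO HFCF, 20.7 ± 0.554 in KO chow, 25.0 ± 1.02 in WT HFCF and 21.5 ± 1.74 in WT chow livers. The FACIT chain Col14a1 followed at 16.6 ± 2.86 FPKM in KO HFCF, 16.2 ± 0.620 in KO chow, 19.5 ± 2.34 in WT HFCF and 12.97 ± 1.73 in WT chow livers. Type I and III chains stood much lower in WT chow livers. Col3a1 ranked 4 among the 67 members in KO HFCF livers at 16.0 ± 5.47 FPKM, 5 in KO chow livers at 12.7 ± 1.42, 4 in WT HFCF livers at 17.4 ± 9.02 and 10 in WT chow livers at 3.60 ± 0.865. Col1a2 ranked 12 in KO HFCF, 13 in KO chow, 13 in WT HFCF and 23 in WT chow livers.

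**Figure D1:**
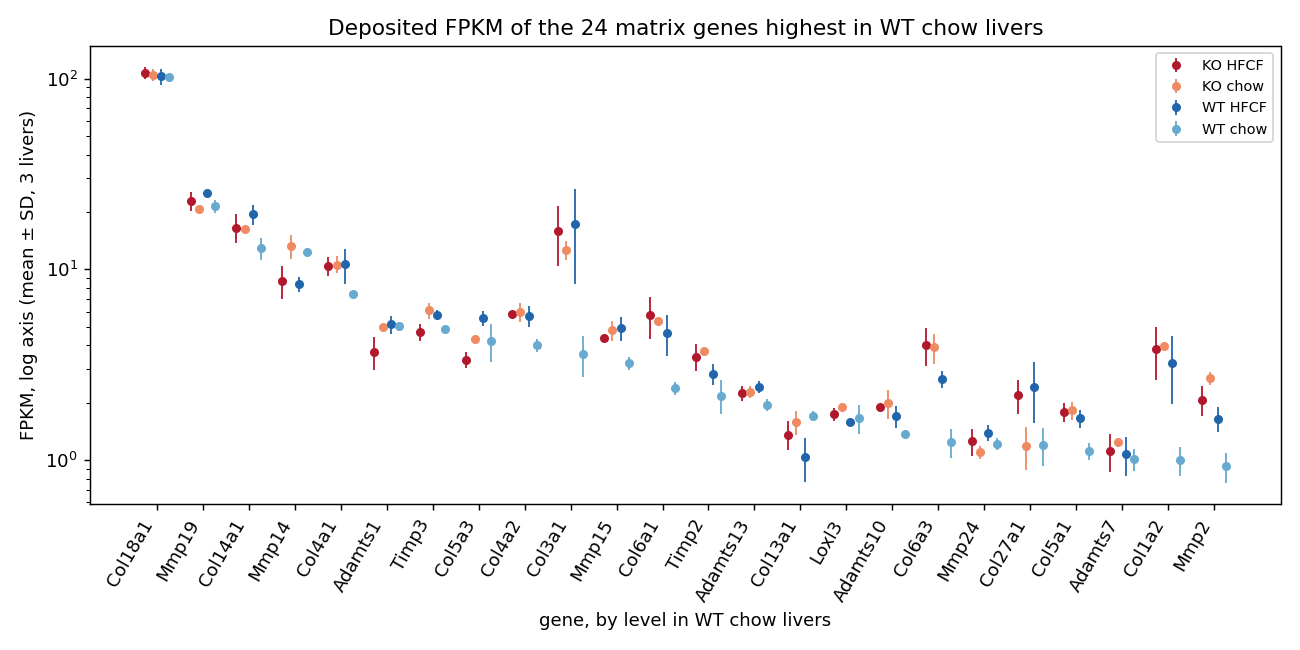
Deposited FPKM (log axis, mean ± SD over 3 livers) of the 24 members highest in WT chow livers, with KO HFCF, KO chow, WT HFCF and WT chow side by side for each gene. Col18a1 stays near 100 FPKM in every group, while Col3a1, Col6a3 and Col1a2 stand higher in the other 3 groups than in WT chow.

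On chow, genes of every one of these families were higher in KO livers. Among the 62 members tested, 29 rose and 0 fell in KO chow against WT chow livers (edgeR adjusted p under 0.05), which is 46.8% of the members beside 15.5% of all 14736 genes called in either direction, 9.72% up and 5.82% down. Risers were 11 of 29 collagens, 4 of 12 Mmp, 2 of 3 Timp, 9 of 13 Adamts and 3 of 5 lysyl oxidase genes. The median log2 fold change over the members was 0.65, against 0.0041 over all genes tested. In whole liver, more cells of one type and more RNA per cell cannot be told apart. Of the 29 calls, 16 held under all 11 alternatives. Leaving out KO chow replicate 1, 2 or 3 gave 22, 23 and 21 calls, and leaving out WT chow replicate 1, 2 or 3 gave 20, 20 and 17.

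With the HFCF diet in WT mice, most of the genes that rose were collagens. Between WT HFCF and WT chow livers 19 members rose and 2 fell, which is 33.9% of the members beside 13.7% of all genes called in either direction, 7.76% up and 5.9% down. The risers were 12 of 29 collagens, the protease genes Mmp2, Mmp12 and Mmp15, the inhibitor Timp1, the procollagen peptidase Adamts2 and the cross-linking enzymes Loxl1 and Loxl2. Col13a1, a transmembrane collagen, and Mmp14, a membrane-type protease, fell. The members' median was 0.45, against -0.0033 over all genes. This comparison and the one on chow share the 3 WT chow livers, so a low or high WT chow value moves both. Of the 21 calls, 9 held under all 11 alternatives. Leaving out WT chow replicate 1, 2 or 3 gave 14, 12 and 14 calls, and leaving out WT HFCF replicate 1, 2 or 3 gave 14, 14 and 24.

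On the HFCF diet the genotypes differed in fewer members. Between KO HFCF and WT HFCF livers 7 members rose and 3 fell, which is 16.1% of the members beside 19.1% of all genes called in either direction, 10.6% up and 8.52% down, so the members' share lay near the background. Col15a1, Col6a3, Mmp12, Mmp13, Timp1, Adamts15 and Loxl4 rose, and Col5a3, Col12a1 and Adamts1 fell. The members' median was 0.18, against 0.020 over all genes. Col15a1 and Col5a3 kept their calls under all 11 alternatives and the other 8 did not. Leaving out KO HFCF replicate 1, 2 or 3 gave 3, 9 and 7 calls, leaving out WT HFCF replicate 1, 2 or 3 gave 9, 5 and 5, and a fit of these 2 groups alone gave 5.

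In KO mice no member was called for the diet. Between KO HFCF and KO chow livers 0 of 62 passed the edgeR test, beside 2.65% of all genes called in either direction, 1.47% up and 1.18% down. At an unadjusted p under 0.05 there were 9 members, 4 up and 5 down, beside 17.9% of all genes. DESeq2 called 2 members, Col27a1 upwards and Mmp14 downwards, among 656 genes in all. A fit of the KO groups alone called Col27a1 upwards and Adamts5 downwards, the latter at -0.71 log2 units (edgeR adjusted p = 0.0323). The median over the members was 0.0014. Without KO HFCF replicate 3, edgeR called Col27a1, Mmp14 and Adamts1, and without KO chow replicate 3 it called Mmp14. KO chow livers serve as the baseline here and as the knockout group in the comparison on chow.

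The difference between these diet responses was itself tested as the interaction of genotype and diet. It passed for 1 of 62 members, Col6a2 (1.61%, beside 0.794% of all genes in either direction, 0.373% up and 0.421% down), at -1.30 ± 0.28 log2 units (edgeR adjusted p = 0.0487). For 46 of the 62 members the log2 fold change of the diet was lower in KO than in WT livers, with a median interaction of -0.46 against -0.00066 over all genes. At an unadjusted p under 0.05 there were 27 members, 26 of them below 0, beside 13.2% of all genes. DESeq2 called 9 members, all below 0, among 344 genes in all. Without WT HFCF replicate 3, edgeR called 5 members: Col6a2, Col1a1, Col1a2, Col3a1 and Mmp12. Without WT HFCF replicate 1 it called Mmp15, and without WT HFCF replicate 2 Adamts5. The call of Col6a2 was lost when any one of the 12 libraries was left out except WT HFCF replicate 3, and with the replicate number as a block, so its adjusted p reached 0.114. A diet response called in WT and not in KO is therefore not shown to differ between the genotypes for the other 61 genes.

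**Figure D2:**
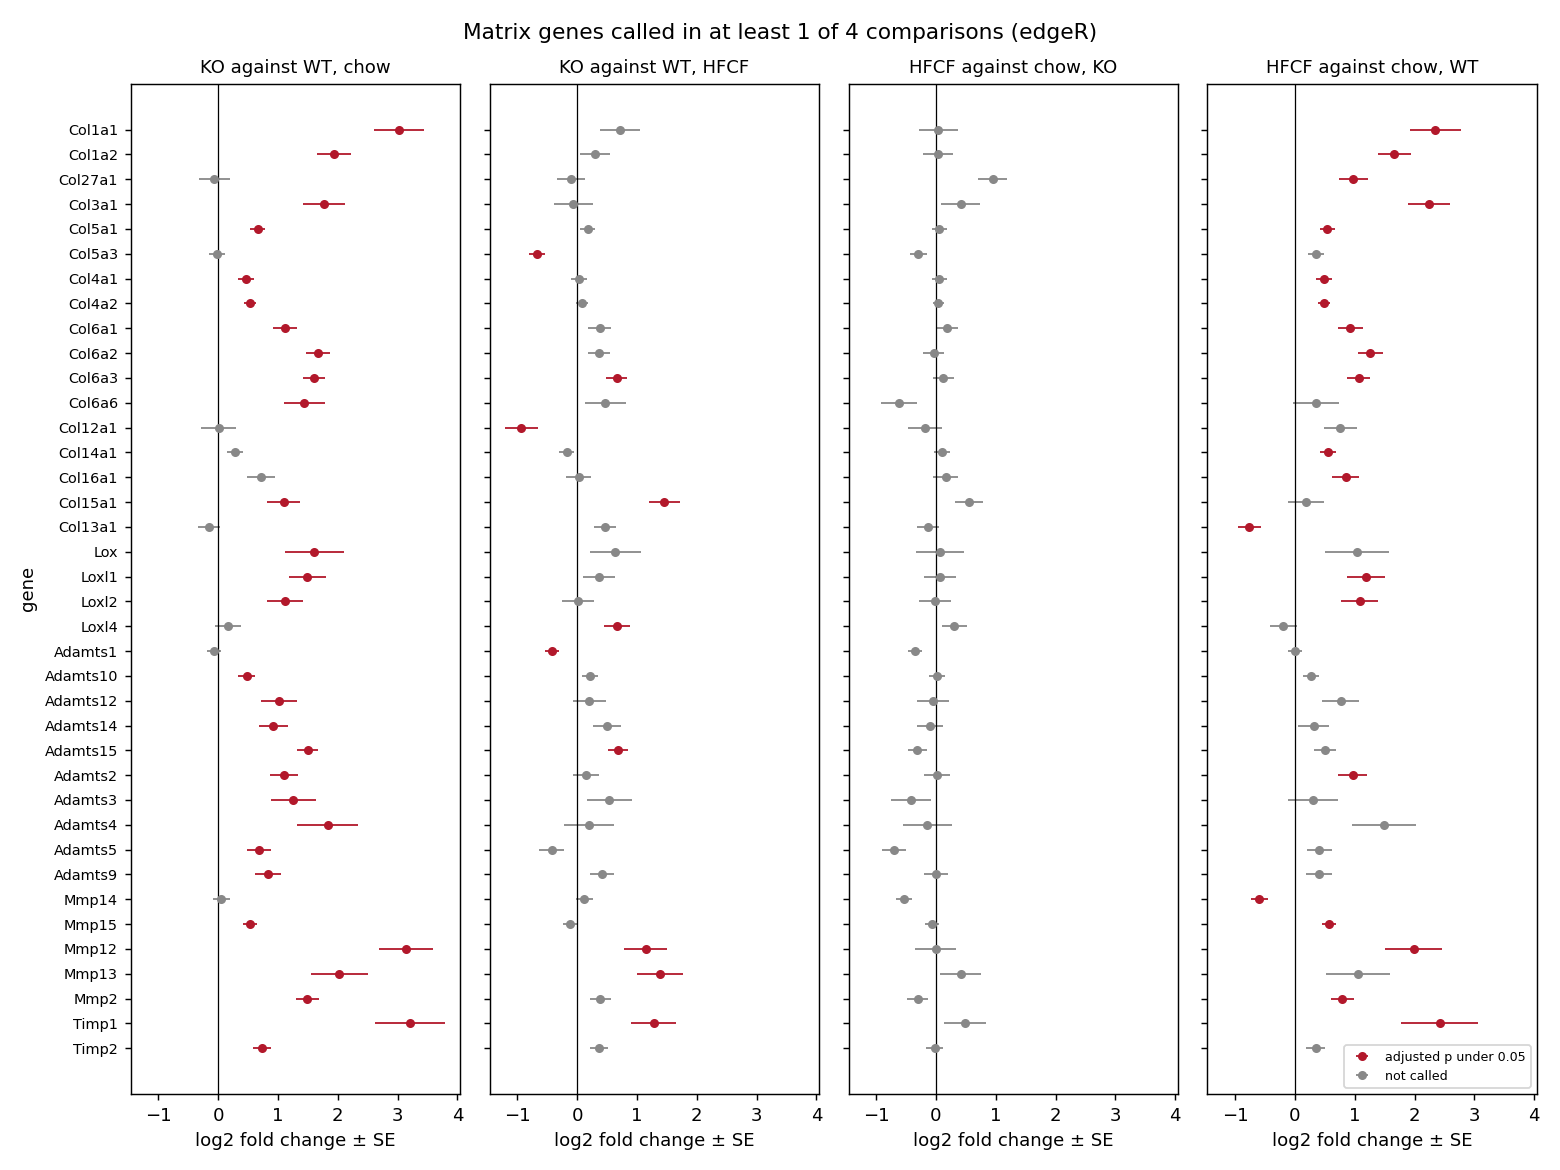
Log2 fold change ± SE (edgeR) of the 38 members called in at least 1 comparison, with 1 panel each for KO against WT on chow, KO against WT on HFCF, HFCF against chow in KO and HFCF against chow in WT. Red points have an adjusted p under 0.05 and grey points do not; no point is red in the panel of the diet in KO.

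Among the fibrillar collagens, the type I and type III chains were low in WT chow livers and high in the other 3 groups. Col1a1 encodes the alpha 1 chain of type I collagen (ENSMUSG00000001506, mm10 chromosome 11, 94936224 to 94953042, plus strand). It stood at 26.3, 8.95 and 24.9 CPM in KO HFCF, 19.4, 18.1 and 21.2 in KO chow, 17.1, 12.7 and 6.77 in WT HFCF and 2.72, 1.77 and 2.70 in WT chow livers. Every liver of the other 3 groups lay above every WT chow liver, KO HFCF replicate 2 lay far below its group, and the HFCF livers of both genotypes overlapped. The change between genotypes was 3.03 ± 0.42 log2 units (edgeR adjusted p = 0.000459) on chow and 0.72 ± 0.34 log2 units (edgeR adjusted p = 0.165) on HFCF. Between diets it was 0.038 ± 0.33 log2 units (edgeR adjusted p = 0.969) in KO and 2.35 ± 0.43 log2 units (edgeR adjusted p = 0.00316) in WT livers. The interaction was -2.31 ± 0.55 log2 units (edgeR adjusted p = 0.0700) and was not called by edgeR, while DESeq2 called it. Without KO HFCF replicate 2, the genotypes differed on HFCF by 1.04 log2 units (edgeR adjusted p = 0.0182).

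Col1a2, the alpha 2 chain of type I collagen (mm10 chromosome 6, 4504814 to 4541543, plus strand), stood at 55.7, 30.0 and 57.4 CPM in KO HFCF, 45.4, 46.8 and 48.5 in KO chow, 54.7, 36.7 and 24.6 in WT HFCF and 12.4, 10.1 and 14.2 in WT chow livers. The 3 KO chow livers lay close together, whereas the HFCF livers spread widely. It rose by 1.94 ± 0.28 log2 units (edgeR adjusted p = 0.000583) in KO chow against WT chow livers and by 1.66 ± 0.28 log2 units (edgeR adjusted p = 0.00181) in WT HFCF against WT chow livers. Between KO HFCF and WT HFCF livers the value was 0.30 ± 0.25 log2 units (edgeR adjusted p = 0.460), and between KO HFCF and KO chow livers 0.027 ± 0.25 log2 units (edgeR adjusted p = 0.971).

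Col3a1, the chain of type III collagen (mm10 chromosome 1, 45311538 to 45349706, plus strand), was the fibrillar chain with the highest FPKM in every group but WT chow, where Col5a3 stood higher. It stood at 168, 81.7 and 164 CPM in KO HFCF, 101, 97.0 and 114 in KO chow, 223, 139 and 72.2 in WT HFCF and 26.5, 26.0 and 39.1 in WT chow livers. WT HFCF replicate 1 was the highest of all 12 livers and replicate 3 the lowest outside WT chow. Its rise was 1.77 ± 0.35 log2 units (edgeR adjusted p = 0.00459) for KO on chow and 2.24 ± 0.35 log2 units (edgeR adjusted p = 0.00116) for the diet in WT livers. It was not called between genotypes on HFCF, at -0.067 ± 0.33 log2 units (edgeR adjusted p = 0.917), nor between diets in KO livers, at 0.41 ± 0.33 log2 units (edgeR adjusted p = 0.554).

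The type V chains, which set the diameter of type I fibrils, gave log2 fold changes under 1. Col5a1 averaged 15.7 ± 1.98 CPM in KO HFCF, 15.1 ± 1.20 in KO chow, 13.9 ± 1.76 in WT HFCF and 9.56 ± 0.872 in WT chow livers. It rose by 0.66 ± 0.13 log2 units (edgeR adjusted p = 0.00425) in KO on chow and by 0.54 ± 0.13 log2 units (edgeR adjusted p = 0.0144) with the diet in WT, the diet call being lost without WT chow replicate 2 or WT HFCF replicate 2 (adjusted p up to 0.0560). Col5a2 stood at 14.6, 11.4 and 16.2 CPM in KO HFCF, 11.1, 10.8 and 12.9 in KO chow, 18.1, 10.4 and 5.22 in WT HFCF and 5.29, 6.44 and 6.15 in WT chow livers, and edgeR called it in no comparison over all 12 livers. Its WT HFCF livers ran from below the lowest WT chow liver to above every other liver. Between genotypes Col5a2 gave 0.96 ± 0.32 log2 units (edgeR adjusted p = 0.0574) on chow and 0.32 ± 0.30 log2 units (edgeR adjusted p = 0.510) on HFCF, and between diets 0.28 ± 0.29 log2 units (edgeR adjusted p = 0.669) in KO and 0.92 ± 0.32 log2 units (edgeR adjusted p = 0.0723) in WT. DESeq2 called Col5a2 in KO on chow, at 0.95 log2 units (DESeq2 adjusted p = 0.0136), and for the diet in WT, at 0.93 log2 units (DESeq2 adjusted p = 0.0182), and a fit of the chow groups alone called it at 0.96 log2 units (edgeR adjusted p = 0.00143). On HFCF it was called without WT HFCF replicate 1, at 0.86 log2 units (edgeR adjusted p = 0.0211), and for the diet in WT without WT HFCF replicate 3, at 1.27 log2 units (edgeR adjusted p = 0.00259).

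Col5a3 moved the other way. It stood at 25.1, 20.5 and 24.8 CPM in KO HFCF and 35.1, 36.2 and 40.6 CPM in WT HFCF livers, without overlap, and fell by 0.67 ± 0.14 log2 units (edgeR adjusted p = 0.00409). In KO chow livers it stood at 29.8, 28.5 and 28.1 CPM and in WT chow livers at 31.5, 21.8 and 34.2 CPM, where the genotypes overlapped. Every WT HFCF liver lay above every WT chow liver for Col5a3, but edgeR did not call the diet in WT. Col27a1, a short fibrillar collagen, averaged 29.2 ± 5.81 CPM in KO HFCF and 15.1 ± 3.48 CPM in KO chow livers, and 31.3 ± 11.5 CPM in WT HFCF and 15.8 ± 3.53 CPM in WT chow livers. The diet value was 0.95 ± 0.25 log2 units (edgeR adjusted p = 0.0582) in KO and 0.98 ± 0.25 log2 units (edgeR adjusted p = 0.0190) in WT, so only the second was called, although the sizes were close and their difference was -0.033 ± 0.35 log2 units. The WT call was lost without WT chow replicate 1 or 2 or WT HFCF replicate 2 (edgeR adjusted p up to 0.0774). Col11a2 and Col24a1 were called by edgeR in no comparison.

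Markers of the cells that make these collagens were summed beside them. The 12 stellate cell markers, all in the table and none at 0, summed to 713 to 827 CPM in KO HFCF, 746 to 792 in KO chow, 735 to 777 in WT HFCF and 648 to 746 in WT chow livers. Of these, Pdgfrb and Ngfr rose in KO on chow, Rgs5 and Hhip in KO on HFCF, and Pdgfrb and Lrat with the diet in WT. That was 2 of 12 each time, beside 15.5%, 19.1% and 13.7% of all genes called in these comparisons. The 6 myofibroblast markers found of 8 summed to 51.5 to 65.0 CPM in KO HFCF, 50.2 to 57.4 in KO chow, 37.8 to 69.9 in WT HFCF and 33.7 to 45.1 in WT chow livers. Within WT HFCF the sums were 69.9, 56.6 and 37.8 CPM, in the same order as the Col1a1, Col1a2 and Col3a1 levels of those livers. In KO HFCF livers the sums were 61.3, 51.5 and 65.0 CPM, an order shared only with Col1a2. They were 52.9, 57.4 and 50.2 CPM in KO chow and 33.7, 39.4 and 45.1 CPM in WT chow livers. In those groups none of these chains had the order of the sums. Of the 6, Lum and Thy1 rose in KO on chow and in KO on HFCF, and Lum rose with the diet in WT, beside the same shares of all genes. Acta2, the contractile actin of the list, gave 0.028 ± 0.27 log2 units (edgeR adjusted p = 0.960) in KO on chow and 0.46 ± 0.26 log2 units (edgeR adjusted p = 0.263) with the diet in WT. The part of these cells in the collagen changes was not tested.

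**Figure D3:**
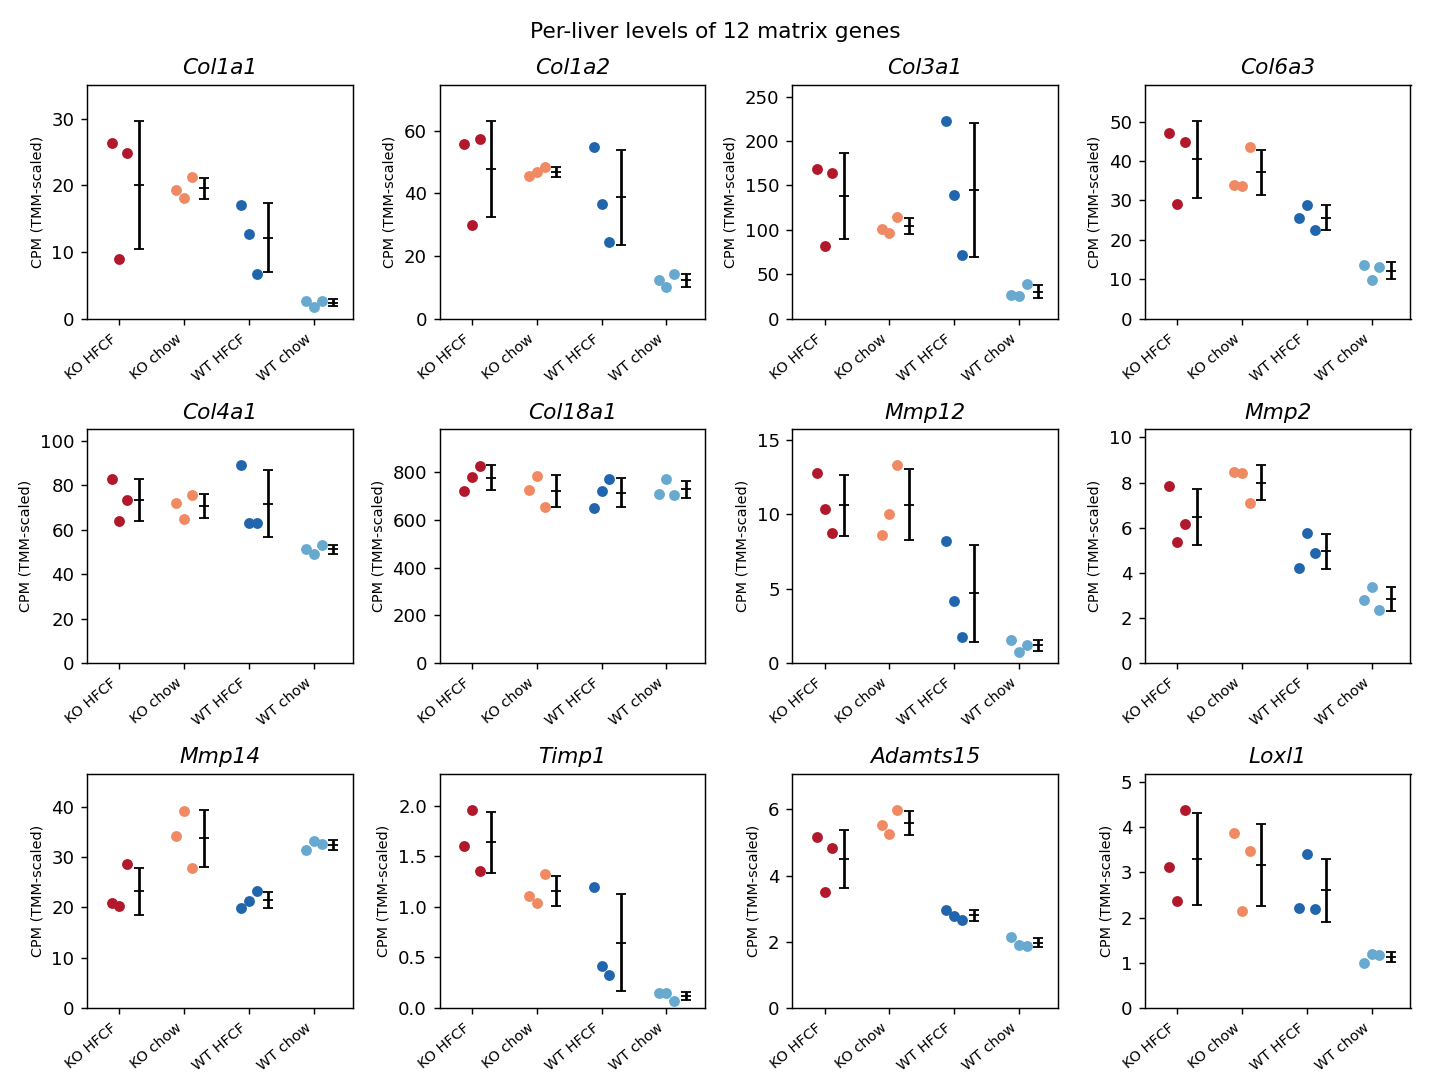
CPM of 12 members in each of the 12 livers, by group (KO HFCF, KO chow, WT HFCF, WT chow), with the mean ± SD of 3 livers as a bar beside the points. Col1a1, Col1a2, Col3a1, Col6a3, Mmp12, Timp1, Adamts15 and Loxl1 are lowest in WT chow, Col18a1 overlaps in all groups, and Mmp14 is lower in WT HFCF than in WT chow.

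All chains of collagen VI that were tested rose on chow. Its chains Col6a1, Col6a2 and Col6a3 assemble into one monomer, and Col6a6 can take the place of Col6a3. All 4 rose in KO chow against WT chow livers, 3 rose with the diet in WT and 1 rose in KO HFCF against WT HFCF livers. Col6a3 (mm10 chromosome 1, 90767389 to 90843928, minus strand) stood at 47.1, 29.2 and 44.9 CPM in KO HFCF, 34.0, 33.6 and 43.7 in KO chow, 25.5, 28.8 and 22.6 in WT HFCF and 13.7, 9.91 and 13.1 in WT chow livers. All KO livers lay above all WT livers of the same diet. It gave 1.60 ± 0.18 log2 units (edgeR adjusted p = 0.000113) on chow, the lowest adjusted p of any member in that comparison. On HFCF it gave 0.66 ± 0.17 log2 units (edgeR adjusted p = 0.0160), a call lost without KO HFCF replicate 1 or 3 or WT HFCF replicate 3 (edgeR adjusted p up to 0.0789). The diet values were 0.12 ± 0.17 log2 units (edgeR adjusted p = 0.761) in KO and 1.06 ± 0.19 log2 units (edgeR adjusted p = 0.00241) in WT.

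Col6a2 stood at 9.16, 6.99 and 10.8 CPM in KO HFCF and 7.97, 8.70 and 11.2 CPM in KO chow livers, which overlapped. In WT HFCF livers it stood at 6.94, 7.86 and 6.25 CPM, all above the 3.58, 2.69 and 2.49 CPM of WT chow livers. It rose by 1.67 ± 0.20 log2 units (edgeR adjusted p = 0.000193) in KO on chow and by 1.26 ± 0.21 log2 units (edgeR adjusted p = 0.00165) with the diet in WT, while the diet in KO gave -0.038 ± 0.18 log2 units (edgeR adjusted p = 0.943). Col6a1 stood at 28.3, 18.4 and 31.5 CPM in KO HFCF, 23.6, 23.0 and 22.2 in KO chow, 23.1, 22.9 and 14.2 in WT HFCF and 10.7, 9.70 and 11.3 in WT chow livers. WT HFCF replicate 3 and KO HFCF replicate 2 were the low livers of their groups. Col6a1 rose by 1.12 ± 0.20 log2 units (edgeR adjusted p = 0.00255) in KO on chow and 0.93 ± 0.20 log2 units (edgeR adjusted p = 0.00869) with the diet in WT, and gave 0.38 ± 0.19 log2 units (edgeR adjusted p = 0.191) between genotypes on HFCF and 0.18 ± 0.19 log2 units (edgeR adjusted p = 0.653) between diets in KO. Without KO HFCF replicate 2 the difference on HFCF was called, at 0.54 log2 units (edgeR adjusted p = 0.0453). Col6a6 averaged 1.87 ± 0.235 CPM in KO chow and 0.681 ± 0.216 CPM in WT chow livers, a rise of 1.44 ± 0.34 log2 units (edgeR adjusted p = 0.0116) that was lost without WT chow replicate 1 (adjusted p = 0.0509) or 3 (adjusted p = 0.0532).

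The basement membrane chains Col4a1 and Col4a2 both rose in KO on chow and with the diet in WT, by about 0.5 log2 units. They lie head to head on chromosome 8 on opposite strands, and their annotated exons share 22 bases. Col4a1 stood at 82.7, 64.0 and 73.4 CPM in KO HFCF, 72.0, 64.6 and 75.5 in KO chow, 88.9, 62.9 and 63.1 in WT HFCF and 51.1, 49.3 and 53.1 in WT chow livers. Col4a2 stood at 40.1, 39.0 and 40.1 CPM in KO HFCF, 35.5, 37.8 and 42.6 in KO chow, 42.9, 35.4 and 34.0 in WT HFCF and 28.6, 25.1 and 26.5 in WT chow livers. For both genes every liver of the other groups lay above every WT chow liver. Col4a2 rose by 0.53 ± 0.098 log2 units (edgeR adjusted p = 0.00309) in KO on chow and 0.49 ± 0.098 log2 units (edgeR adjusted p = 0.00584) with the diet in WT, and both calls held under all alternatives. Col4a1 rose by 0.47 ± 0.13 log2 units (edgeR adjusted p = 0.0267) and 0.49 ± 0.13 log2 units (edgeR adjusted p = 0.0238) in these comparisons, but its calls were lost without KO chow replicate 1 or 3 or any one WT chow liver on chow (adjusted p up to 0.0826), and without any one WT chow liver or WT HFCF replicate 1 for the diet (adjusted p up to 0.0869). In KO livers the diet gave 0.053 ± 0.13 log2 units for Col4a1 and 0.041 ± 0.096 log2 units for Col4a2, and on HFCF the genotypes gave 0.032 ± 0.13 log2 units and 0.085 ± 0.096 log2 units, none called. Col4a3, Col4a4 and Col4a5 were called by edgeR in no comparison.

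The multiplexins behaved unlike each other. Col15a1 encodes collagen XV of basement membranes (mm10 chromosome 4, 47208161 to 47313167, plus strand), and it had the lowest adjusted p of any member between the genotypes on HFCF. Its levels were 6.69, 4.62 and 5.74 CPM in KO HFCF and 2.93, 5.04 and 3.72 CPM in KO chow livers, against 2.33, 2.64 and 1.22 CPM in WT HFCF and 1.86, 1.70 and 1.87 CPM in WT chow livers. All KO livers lay above all WT livers. It rose in KO by 1.46 ± 0.26 log2 units (edgeR adjusted p = 0.00157) on HFCF and by 1.09 ± 0.28 log2 units (edgeR adjusted p = 0.0175) on chow, the call on chow being lost without KO chow replicate 2 or WT chow replicate 2 or 3 (adjusted p up to 0.0735). Between diets it gave 0.55 ± 0.24 log2 units (edgeR adjusted p = 0.244) in KO and 0.19 ± 0.30 log2 units (edgeR adjusted p = 0.719) in WT. Col18a1 stood at 722, 779.9 and 826 CPM in KO HFCF, 723, 785 and 654 in KO chow, 649, 721 and 771 in WT HFCF and 708, 769 and 704 in WT chow livers, with full overlap. Its changes were -0.013 ± 0.095 log2 units and 0.12 ± 0.095 log2 units between genotypes on chow and HFCF, and 0.11 ± 0.095 log2 units and -0.027 ± 0.095 log2 units between diets in KO and WT, none called.

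Of the FACIT collagens, Col14a1 and Col16a1 rose with the diet in WT. Col14a1 stood at 154, 130.1 and 121 CPM in WT HFCF and 95.0, 78.9 and 102 CPM in WT chow livers, without overlap, a rise of 0.55 ± 0.13 log2 units (edgeR adjusted p = 0.0142). That call was lost without WT chow replicate 2 (adjusted p = 0.0549) or WT HFCF replicate 1 (adjusted p = 0.0572). Col14a1 stood at 133, 93.8 and 132 CPM in KO HFCF and 112, 109 and 112 CPM in KO chow livers, which overlapped. Col16a1 averaged 6.68 ± 1.10 CPM in WT HFCF and 3.71 ± 0.764 CPM in WT chow livers and rose by 0.85 ± 0.23 log2 units (edgeR adjusted p = 0.0256). That call was lost without WT chow replicate 2 or 3 or WT HFCF replicate 1 or 2 (adjusted p up to 0.0919 with edgeR). In KO on chow Col16a1 gave 0.71 ± 0.23 log2 units (edgeR adjusted p = 0.0503), and the livers of the genotypes did not overlap. There it was called by DESeq2 (DESeq2 adjusted p = 0.0334). It was also called with the replicate number as a block (edgeR adjusted p = 0.0441) and in a fit of the chow groups alone (edgeR adjusted p = 0.0383). Col12a1 stood at 4.80, 1.82 and 5.46 CPM in KO HFCF and 8.30, 7.23 and 7.80 CPM in WT HFCF livers, where KO HFCF replicate 2 was the lowest, and fell by 0.94 ± 0.28 log2 units (edgeR adjusted p = 0.0294). For the diet in WT Col12a1 gave 0.76 ± 0.27 log2 units (edgeR adjusted p = 0.0856), and DESeq2 called it at 0.77 log2 units (DESeq2 adjusted p = 0.0482). The call of Col12a1 was lost without any one WT HFCF liver and in a fit of these groups alone (adjusted p up to 0.0644). Col13a1, a transmembrane collagen, averaged 4.72 ± 1.15 CPM in WT HFCF and 7.99 ± 0.509 CPM in WT chow livers and fell by 0.76 ± 0.19 log2 units (edgeR adjusted p = 0.0177), a call lost without WT chow replicate 2 or WT HFCF replicate 1 or 2 (adjusted p up to 0.0686).

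**Figure D4:**
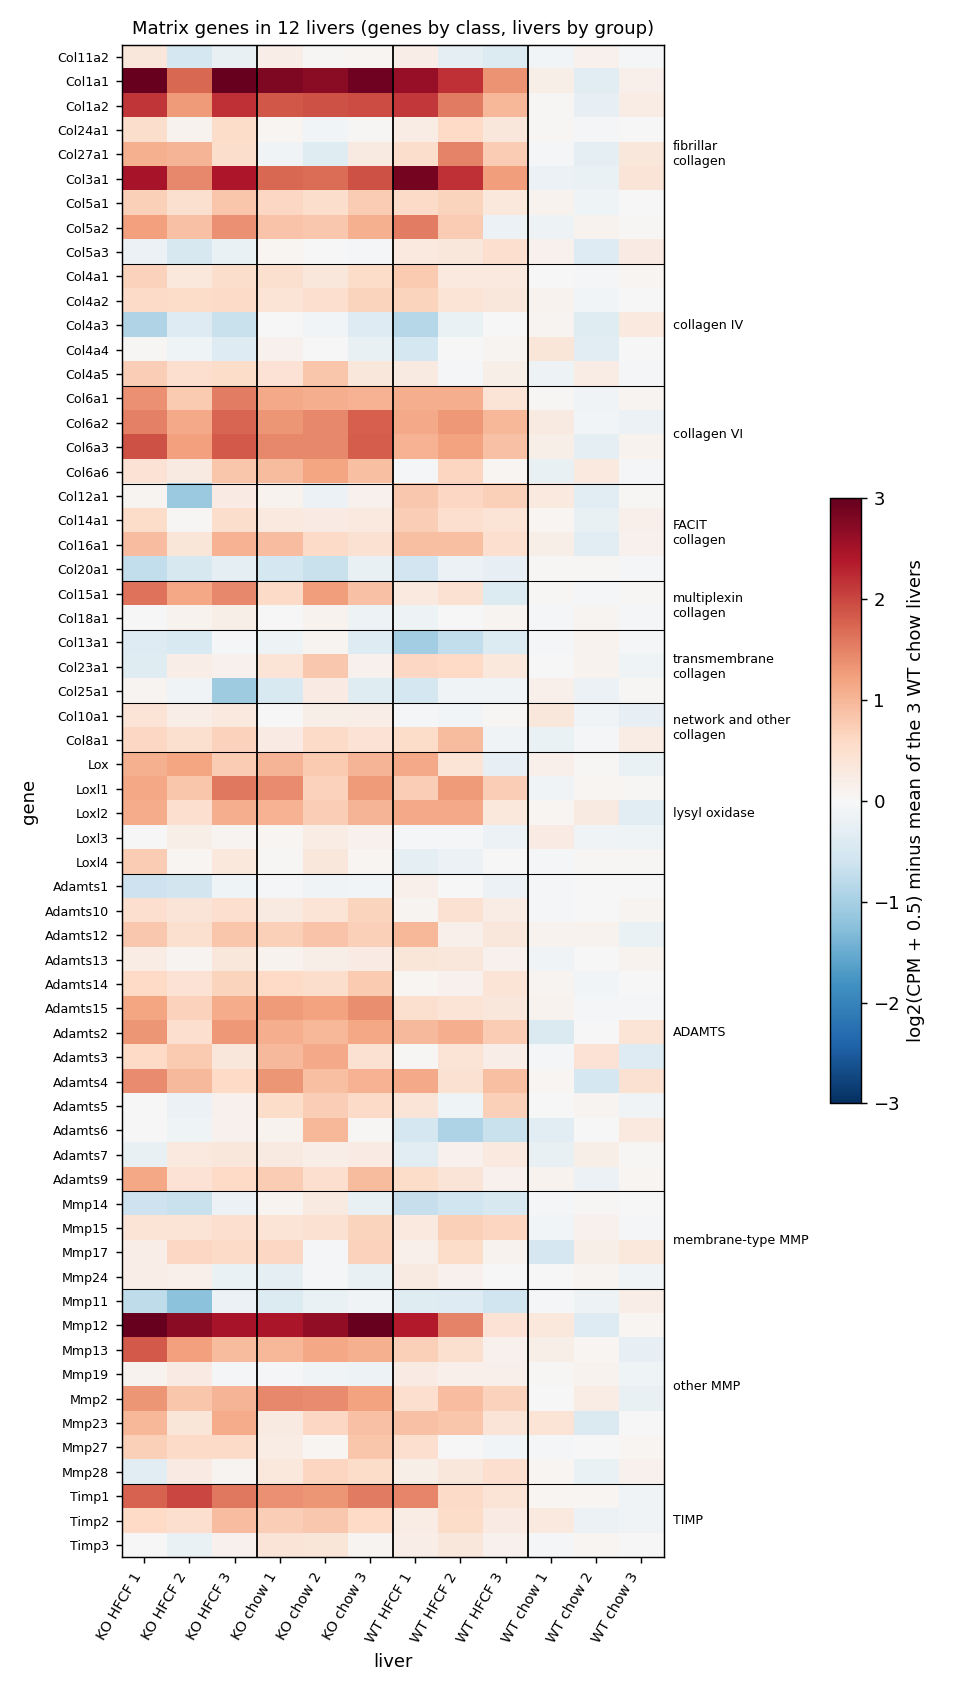
The 62 tested members (rows, grouped by class) in 12 livers (columns, by group), coloured by log2(CPM + 0.5) minus the mean of the 3 WT chow livers. Col1a1, Col1a2, Col3a1, Col6a1, Col6a2, Col6a3, Mmp12 and Timp1 are red in the 9 livers outside WT chow to unequal extents, while Col18a1, Loxl3, Mmp19 and Timp3 stay pale throughout.

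Of the cross-linking enzymes, 3 of 5 rose in KO on chow and 2 with the diet in WT. Lysyl oxidases oxidise lysine residues of collagen and elastin, from which the cross-links form. Loxl1 stood at 3.12, 2.38 and 4.39 CPM in KO HFCF, 3.87, 2.14 and 3.47 in KO chow, 2.22, 3.41 and 2.19 in WT HFCF and 1.00, 1.20 and 1.18 in WT chow livers. Every WT chow liver was below every other liver. It rose by 1.49 ± 0.31 log2 units (edgeR adjusted p = 0.00656) in KO on chow and 1.19 ± 0.32 log2 units (edgeR adjusted p = 0.0254) with the diet in WT, the second call being lost without any one WT chow liver or WT HFCF replicate 2 (adjusted p up to 0.0919). Loxl2 stood at 3.92, 2.38 and 3.83 CPM in KO HFCF, 3.71, 2.90 and 3.65 in KO chow, 3.98, 3.96 and 2.06 in WT HFCF and 1.64, 1.98 and 1.11 in WT chow livers. Its WT HFCF replicate 3 lay near WT chow, while the other livers outside WT chow were higher. Loxl2 rose by 1.12 ± 0.30 log2 units (edgeR adjusted p = 0.0232) in KO on chow and 1.08 ± 0.30 log2 units (edgeR adjusted p = 0.0302) with the diet in WT, and both calls were lost without single livers (adjusted p up to 0.105 and 0.124, both without WT chow replicate 3).

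Lox itself was near the limit of the counts. Its counts were 19, 22 and 18 in KO HFCF, 24, 15 and 21 in KO chow, 26, 10 and 4 in WT HFCF and 7, 6 and 4 in WT chow livers. It rose by 1.61 ± 0.50 log2 units (edgeR adjusted p = 0.0417) in KO on chow, but was not called without any one of those 6 livers (adjusted p up to 0.149). The diet gave 0.071 ± 0.40 log2 units (edgeR adjusted p = 0.953) in KO and 1.04 ± 0.53 log2 units (edgeR adjusted p = 0.211) in WT, and the genotypes on HFCF 0.64 ± 0.43 log2 units (edgeR adjusted p = 0.334). Without WT HFCF replicate 1 the difference on HFCF was called, at 1.45 log2 units (edgeR adjusted p = 0.0277), and without WT HFCF replicate 3 so was the diet in WT, at 1.46 log2 units (edgeR adjusted p = 0.0361). Neither Loxl1, at 0.36 ± 0.27 log2 units, nor Loxl2, at 0.020 ± 0.27 log2 units, was called between genotypes on HFCF, nor with the diet in KO, at 0.064 ± 0.26 log2 units and -0.019 ± 0.27 log2 units. Loxl4 stood at 4.43, 2.52 and 3.15 CPM in KO HFCF and 1.88, 2.09 and 2.38 CPM in WT HFCF livers and rose by 0.67 ± 0.22 log2 units (edgeR adjusted p = 0.0445), a call lost under 8 of 11 alternatives (adjusted p up to 0.218, without KO HFCF replicate 1). Loxl3 was called by edgeR in no comparison.

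Among the metalloproteinases, Mmp12 had the largest change in KO on chow and with the diet in WT. Mmp12 encodes the elastase of macrophages (mm10 chromosome 9, 7344381 to 7369499, plus strand). It stood at 12.8, 10.3 and 8.72 CPM in KO HFCF, 8.64, 10.01 and 13.3 in KO chow, 8.19, 4.17 and 1.74 in WT HFCF and 1.57, 0.779 and 1.24 in WT chow livers. All 6 KO livers lay above all 6 WT livers, and WT HFCF replicate 3 lay close to WT chow. In KO it rose by 3.14 ± 0.45 log2 units (edgeR adjusted p = 0.000578) on chow and 1.15 ± 0.36 log2 units (edgeR adjusted p = 0.0401) on HFCF, and with the diet it rose by 1.99 ± 0.48 log2 units (edgeR adjusted p = 0.0157) in WT and gave -0.0072 ± 0.34 log2 units (edgeR adjusted p = 0.995) in KO, a difference of -1.99 ± 0.60 log2 units (edgeR adjusted p = 0.151). The call on chow held under all alternatives. The call on HFCF was lost under 7 of 11 (adjusted p up to 0.133, without KO HFCF replicate 1), and the diet call was lost without WT chow replicate 2 or 3 or WT HFCF replicate 1 (adjusted p up to 0.0711).

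Macrophage markers stood beside Mmp12. The 13 found of 14 listed, none at 0, summed to 855, 789.7 and 822 CPM in KO HFCF, 603, 652 and 636 in KO chow, 742, 442 and 366 in WT HFCF and 410.0, 399 and 379.8 in WT chow livers. In WT HFCF the sum was highest in replicate 1 and lowest in replicate 3, the order that Mmp12 and Timp1 also had. In the other groups Mmp12 did not have the order of the sums, and Timp1 had it only in WT chow, at very low counts. Of the 13, 9 rose in KO on chow, 8 rose in KO on HFCF, 4 rose with the diet in WT and 1, Clec4f of resident Kupffer cells, rose with the diet in KO. The shares of all genes called in these comparisons were 15.5%, 19.1%, 13.7% and 2.65%. The part of macrophages in the change of Mmp12 was not tested.

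Gelatinases and collagenases cut denatured and fibrillar collagen. Mmp2, gelatinase A, stood at 7.85, 5.38 and 6.19 CPM in KO HFCF, 8.47, 8.42 and 7.12 in KO chow, 4.21, 5.77 and 4.90 in WT HFCF and 2.79, 3.40 and 2.35 in WT chow livers. The 4 groups were ordered KO chow, KO HFCF, WT HFCF, WT chow by their means. It rose by 1.49 ± 0.19 log2 units (edgeR adjusted p = 0.000238) in KO on chow, and by 0.79 ± 0.20 log2 units (edgeR adjusted p = 0.0172) with the diet in WT, a call lost without WT chow replicate 1 or 3 or WT HFCF replicate 2 (adjusted p up to 0.0793). Between genotypes on HFCF it gave 0.39 ± 0.18 log2 units (edgeR adjusted p = 0.152), and between diets in KO -0.31 ± 0.17 log2 units (edgeR adjusted p = 0.368). Mmp9, gelatinase B, was under the filter with counts of 3, 7 and 10 in KO HFCF, 6, 6 and 16 in KO chow, 9, 2 and 1 in WT HFCF and 9, 2 and 10 in WT chow livers, and was not tested over all 12 livers.

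Mmp13, the main interstitial collagenase of mice, had counts of 30, 18 and 17 in KO HFCF, 18, 17 and 17 in KO chow, 13, 8 and 5 in WT HFCF and 5, 4 and 2 in WT chow livers. All KO livers lay above all WT livers in CPM. Mmp13 rose in KO by 2.02 ± 0.47 log2 units (edgeR adjusted p = 0.0111) on chow and by 1.39 ± 0.38 log2 units (edgeR adjusted p = 0.0207) on HFCF. The call on chow was lost without WT chow replicate 3 (adjusted p = 0.0580), and that on HFCF without KO HFCF replicate 1, WT HFCF replicate 2 or 3, or the other groups in the fit (adjusted p up to 0.109). The diet gave 0.42 ± 0.34 log2 units (edgeR adjusted p = 0.564) in KO and 1.05 ± 0.54 log2 units (edgeR adjusted p = 0.205) in WT.

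The membrane-type enzymes went in opposite directions. Mmp14, which activates the proenzyme of Mmp2 at the cell surface, stood at 20.8, 20.2 and 28.5 CPM in KO HFCF and 34.3, 39.1 and 27.7 CPM in KO chow livers, and at 19.9, 21.2 and 23.2 CPM in WT HFCF and 31.4, 33.3 and 32.6 CPM in WT chow livers. The diet groups overlapped in KO through KO HFCF replicate 3 and did not overlap in WT. Mmp14 fell by 0.60 ± 0.14 log2 units (edgeR adjusted p = 0.0127) in WT, which held under all alternatives, and gave -0.53 ± 0.14 log2 units (edgeR adjusted p = 0.0558) in KO, where DESeq2 called it. Between genotypes it gave 0.055 ± 0.14 log2 units on chow and 0.12 ± 0.14 log2 units on HFCF, neither called. Mmp15 stood at 18.9, 19.0 and 20.5 CPM in KO HFCF, 18.9, 19.7 and 22.7 in KO chow, 17.6, 23.5 and 22.3 in WT HFCF and 13.4, 15.6 and 13.7 in WT chow livers. Every WT chow liver was below every other liver. It rose by 0.52 ± 0.12 log2 units (edgeR adjusted p = 0.00968) in KO on chow and 0.57 ± 0.12 log2 units (edgeR adjusted p = 0.00671) with the diet in WT. Mmp11, Mmp17, Mmp19, Mmp23, Mmp24, Mmp27 and Mmp28 were called by edgeR in no comparison.

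Of the inhibitors, Timp1 had the largest fitted change on chow of any member, at low counts. Its counts were 22, 28 and 24 in KO HFCF, 20, 15 and 21 in KO chow, 21, 6 and 5 in WT HFCF and 2, 2 and 1 in WT chow livers. In CPM these were 1.60, 1.96 and 1.35 in KO HFCF, 1.11, 1.04 and 1.32 in KO chow, 1.19, 0.417 and 0.322 in WT HFCF and 0.143, 0.142 and 0.0691 in WT chow livers. All KO HFCF livers lay above all WT HFCF livers, and every other liver lay above WT chow. Timp1 rose in KO by 3.21 ± 0.58 log2 units (edgeR adjusted p = 0.00238) on chow and by 1.28 ± 0.38 log2 units (edgeR adjusted p = 0.0300) on HFCF, and with the diet in WT by 2.42 ± 0.65 log2 units (edgeR adjusted p = 0.0212), while the diet in KO gave 0.49 ± 0.35 log2 units (edgeR adjusted p = 0.498). With 1 or 2 reads per WT chow liver, the fitted fold against that group is imprecise. The call on chow held under all alternatives. The others were lost without single livers, with edgeR adjusted p up to 0.115 without WT HFCF replicate 2 between genotypes on HFCF and up to 0.151 without WT HFCF replicate 1 for the diet.

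Timp2, which inhibits metalloproteinases and also takes part in the activation of Mmp2 by Mmp14, stood at 13.01, 12.2 and 16.6 CPM in KO HFCF, 14.5, 15.1 and 13.1 in KO chow, 10.01, 12.7 and 10.1 in WT HFCF and 10.4, 7.43 and 7.81 in WT chow livers. The genotypes did not overlap on chow and overlapped on HFCF. Timp2 rose by 0.73 ± 0.16 log2 units (edgeR adjusted p = 0.00730) in KO on chow. On HFCF the genotypes gave 0.36 ± 0.15 log2 units (edgeR adjusted p = 0.118), and the diets gave -0.025 ± 0.15 log2 units (edgeR adjusted p = 0.956) in KO and 0.35 ± 0.16 log2 units (edgeR adjusted p = 0.165) in WT. Timp3, which stays bound to the matrix, stood at 39.7, 34.5 and 43.4 CPM in KO HFCF, 52.5, 51.4 and 42.1 in KO chow, 45.9, 50.4 and 43.4 in WT HFCF and 38.4, 41.6 and 39.6 in WT chow livers. Over all 12 livers edgeR called it in no comparison, with 0.29 ± 0.10 log2 units and -0.25 ± 0.10 log2 units between genotypes on chow and HFCF, and -0.31 ± 0.10 log2 units and 0.22 ± 0.10 log2 units between diets in KO and WT. DESeq2 called its interaction, at -0.54 log2 units (DESeq2 adjusted p = 0.0475). Without KO chow replicate 3 edgeR called Timp3 in KO on chow, at 0.38 log2 units (edgeR adjusted p = 0.0288), and in KO on HFCF once KO HFCF replicate 3 was left out, at -0.36 log2 units (edgeR adjusted p = 0.0479). Annotated exons of Timp3 share 21.3% of their bases with Syn3 on the other strand, and the strand setting of the counting is not given in the sources used here.

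Of the Adamts genes, 9 of 13 rose in KO on chow. Adamts2, Adamts3 and Adamts14 remove the N-propeptide of procollagens. Adamts2 stood at 12.6, 6.92 and 12.3 CPM in KO HFCF, 10.6, 9.87 and 11.2 in KO chow, 9.78, 10.6 and 8.38 in WT HFCF and 3.36, 4.81 and 6.50 in WT chow livers. WT chow livers were the lowest, with KO HFCF replicate 2 just above them. Adamts2 rose by 1.11 ± 0.24 log2 units (edgeR adjusted p = 0.00742) in KO on chow and 0.96 ± 0.24 log2 units (edgeR adjusted p = 0.0171) with the diet in WT, the diet call being lost without WT chow replicate 1 (adjusted p = 0.0639) or WT HFCF replicate 2 (adjusted p = 0.0536). It gave 0.15 ± 0.22 log2 units between genotypes on HFCF and 0.010 ± 0.22 log2 units between diets in KO. Adamts3 and Adamts14 rose in KO on chow by 1.26 ± 0.37 log2 units (edgeR adjusted p = 0.0356) and 0.92 ± 0.24 log2 units (edgeR adjusted p = 0.0207), and both calls were lost without single livers (adjusted p up to 0.149 for Adamts3 with edgeR and 0.0903 for Adamts14 with DESeq2).

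Adamts15, a protease of versican and aggrecan, rose in KO on both diets. It stood at 5.16, 3.50 and 4.84 CPM in KO HFCF and 5.54, 5.24 and 5.99 CPM in KO chow livers, against 2.96, 2.78 and 2.64 CPM in WT HFCF and 2.15, 1.91 and 1.87 CPM in WT chow livers. All KO livers lay above all WT livers. It rose in KO by 1.50 ± 0.17 log2 units (edgeR adjusted p = 0.000126) on chow and 0.69 ± 0.17 log2 units (edgeR adjusted p = 0.0110) on HFCF, the call on HFCF being lost without KO HFCF replicate 1 (adjusted p = 0.0546) or 3 (adjusted p = 0.0553). Adamts1, another proteoglycan protease, stood at 17.4, 18.2 and 24.6 CPM in KO HFCF, 26.3, 25.2 and 25.7 in KO chow, 30.1, 26.6 and 24.03 in WT HFCF and 26.5, 27.5 and 27.1 in WT chow livers. It fell by 0.42 ± 0.12 log2 units (edgeR adjusted p = 0.0257) between genotypes on HFCF, where KO HFCF replicate 3 overlapped the WT livers, and the call was lost under 5 of 11 alternatives (adjusted p up to 0.0928, without WT HFCF replicate 1). The diet gave -0.35 ± 0.12 log2 units (edgeR adjusted p = 0.133) in KO and -0.0040 ± 0.12 log2 units (edgeR adjusted p = 0.992) in WT, and the genotypes gave -0.071 ± 0.12 log2 units on chow.

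The aggrecanase Adamts4 had counts of 28, 15 and 19 in KO chow and 5, 1 and 9 in WT chow livers and rose by 1.83 ± 0.51 log2 units (edgeR adjusted p = 0.0266). Adamts5, another aggrecanase, averaged 3.63 ± 0.417 CPM in KO HFCF, 5.96 ± 0.462 in KO chow, 4.89 ± 1.52 in WT HFCF and 3.69 ± 0.289 in WT chow livers and rose by 0.69 ± 0.20 log2 units (edgeR adjusted p = 0.0333) in KO on chow. Without WT HFCF replicate 2 it was also called in KO on HFCF, at -0.63 log2 units (edgeR adjusted p = 0.0285), and for the diet in WT, at 0.61 log2 units (edgeR adjusted p = 0.0421). The diet in KO gave -0.70 ± 0.20 log2 units for Adamts5 (edgeR adjusted p = 0.0733), with the livers of the diets not overlapping. DESeq2 called its interaction, at -1.12 log2 units (DESeq2 adjusted p = 0.0354). Adamts9, Adamts10 and Adamts12 also rose in KO on chow, by 0.83 ± 0.21 log2 units, 0.48 ± 0.14 log2 units and 1.02 ± 0.30 log2 units. Each of these 5 calls was lost without single livers, with edgeR adjusted p values up to 0.0876 (Adamts4, without KO chow replicate 1), 0.119 (Adamts5, without WT chow replicate 3), 0.0703 (Adamts9, without WT chow replicate 2), 0.121 (Adamts10, without KO chow replicate 3) and 0.131 (Adamts12, without WT chow replicate 3). Adamts13, which cleaves von Willebrand factor and comes from stellate cells in liver, was called by edgeR in no comparison and stood at 11.7 ± 1.14 CPM in KO HFCF, 11.3 ± 0.587 in KO chow, 12.2 ± 1.08 in WT HFCF and 10.02 ± 0.781 in WT chow livers. Adamts6 and Adamts7 were not called by edgeR over all 12 livers either.

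In all, edgeR called 24 tested members in no comparison over all 12 livers. Among them, DESeq2 called Col5a2 and Timp3, edgeR called Adamts6 in KO on HFCF in a fit of the HFCF groups alone, at 0.79 log2 units (edgeR adjusted p = 0.0261), and Col8a1 for the diet in WT without WT HFCF replicate 3, at 1.04 log2 units (edgeR adjusted p = 0.0340). Besides those named above they were Col10a1, Col20a1, Col23a1, Col25a1 and Col8a1, all low in level. Annotated exons of several overlap another gene, with Mmp19 sharing 22.3% of its bases with Tmem198b, Mmp24 13.6% with BC029722, Mmp28 12.03% with 1700020L24Rik and Loxl3 11.6% with Htra2, all on the other strand.

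Genes that process collagen moved in both directions. Of 19 such genes tested, 4 rose and 0 fell in KO on chow, 5 rose and 1 fell in KO on HFCF, 1 rose with the diet in KO, and 5 rose and 2 fell with the diet in WT. Of all genes, 15.5% were called in KO on chow, 19.1% in KO on HFCF, 2.65% for the diet in KO and 13.7% for the diet in WT. Pcolce, the enhancer of procollagen C-proteinase, averaged 11.5 ± 1.74 CPM in KO chow and 4.39 ± 0.573 CPM in WT chow livers (1.39 ± 0.17 log2 units, edgeR adjusted p = 0.000198). It averaged 7.84 ± 0.614 CPM in WT HFCF livers (0.84 ± 0.18 log2 units, edgeR adjusted p = 0.00713, against WT chow), and its interaction of genotype and diet was called at -1.14 ± 0.24 log2 units (edgeR adjusted p = 0.0457). Serpinh1, the collagen chaperone Hsp47, rose by 1.11 ± 0.19 log2 units (edgeR adjusted p = 0.00237) with the diet in WT and by 0.70 ± 0.20 log2 units (edgeR adjusted p = 0.0286) in KO on chow. Bmp1, the C-proteinase itself, averaged 168 ± 8.53 CPM in KO HFCF and 123 ± 9.55 CPM in WT HFCF livers (0.44 ± 0.077 log2 units, edgeR adjusted p = 0.00133), and fell by 0.40 ± 0.077 log2 units (edgeR adjusted p = 0.00397) with the diet in WT. The list's medians were 0.45 in KO on chow, 0.12 in KO on HFCF, 0.0033 for the diet in KO and 0.067 for the diet in WT.

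Many genes of other matrix proteins rose in KO livers on chow. Of 36 glycoprotein and proteoglycan genes, all tested, 19 rose and 0 fell in KO on chow, 8 rose and 1 fell in KO on HFCF, 0 rose and 1 fell with the diet in KO, and 11 rose and 2 fell with the diet in WT. The shares of all genes called were 15.5% in KO on chow, 19.1% in KO on HFCF, 2.65% for the diet in KO and 13.7% for the diet in WT. Median log2 fold changes were 0.62 for KO on chow, 0.090 for KO on HFCF, -0.020 for the diet in KO and 0.40 for the diet in WT. Vcan, the proteoglycan versican, averaged 4.90 ± 0.948 CPM in KO HFCF, 2.29 ± 0.480 in KO chow, 0.4999 ± 0.388 in WT HFCF and 0.234 ± 0.0364 in WT chow livers, a rise of 3.21 ± 0.35 log2 units (edgeR adjusted p = 4.41e-05) on HFCF and 3.24 ± 0.46 log2 units (edgeR adjusted p = 0.000520) on chow. Fn1, fibronectin, averaged 1762 ± 113 CPM in KO HFCF and 979.8 ± 199 CPM in WT HFCF livers (0.85 ± 0.18 log2 units, edgeR adjusted p = 0.00433). Tnc, tenascin C, rose by 1.75 ± 0.32 log2 units (edgeR adjusted p = 0.00283) in KO on chow, 0.94 ± 0.27 log2 units (edgeR adjusted p = 0.0242) in KO on HFCF and 1.55 ± 0.32 log2 units (edgeR adjusted p = 0.00708) with the diet in WT. Lama4, a laminin chain of vessels, fell by 0.55 ± 0.12 log2 units (edgeR adjusted p = 0.00442) in KO on HFCF.

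Some markers of other cells differed between the groups as well. The 6 B and plasma cell markers found of 7 summed to 195 to 228 CPM in KO HFCF, 381 to 496 in KO chow, 5.67 to 10.3 in WT HFCF and 6.72 to 10.2 in WT chow livers. All 6 rose in KO on chow and 3 rose in KO on HFCF, beside 15.5% and 19.1% of all genes called. With the diet 2 fell in KO, beside 2.65% of all genes called, and 0 were called in WT, beside 13.7%. The 8 endothelial markers summed to 504 to 553 CPM in KO HFCF, 538 to 576 in KO chow, 498 to 571 in WT HFCF and 502 to 521 in WT chow livers. None of the 8 was called with the diet in either genotype or between genotypes on chow. Between genotypes on HFCF, Clec4g rose and Lyve1 fell in KO, beside 19.1% of all genes called. The 5 cholangiocyte markers found of 6 summed to 49.2 to 71.3 CPM in KO HFCF, 57.7 to 95.3 in KO chow, 50.3 to 94.3 in WT HFCF and 30.2 to 45.0 in WT chow livers. Of these, only Spp1, which is also on the macrophage list, was called, in KO on chow and with the diet in WT. Beside it, 15.5% and 13.7% of all genes were called. The medians of the 5 log2 fold changes were 0.33 and 0.0047 in these comparisons. The 4 mesothelial markers summed to 6.03 to 6.75 CPM in KO HFCF, 3.53 to 7.69 in KO chow, 10.1 to 11.2 in WT HFCF and 5.65 to 7.19 in WT chow livers. The 6 hepatocyte markers found of 8 summed to 19789 to 20877 CPM in KO HFCF, 18808 to 22341 in KO chow, 17842 to 21272 in WT HFCF and 25236 to 25939.7 in WT chow livers and were highest in WT chow. Of these, 3 fell in KO on chow and 4 fell with the diet in WT, beside 15.5% and 13.7% of all genes called. In KO on HFCF 1 rose and 1 fell, beside 19.1%, and 0 were called for the diet in KO, beside 2.65%. The 2 neutrophil markers found of 6 summed to at most 4.07 CPM in any liver. Of 5 adipose markers 1, Cfd, was found, at 0.719 ± 0.267 CPM in KO HFCF, 1.40 ± 0.454 CPM in KO chow, 151 ± 59.1 CPM in WT HFCF and 2.36 ± 1.38 CPM in WT chow livers. Adipoq, Retn, Lep and Plin1 were not among the genes given, each of which reached at least 10 counts in some liver. Cfd thus stood without any other adipose marker of the list. The part of these cells in the members' changes was not tested.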

How the data were processed

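Per the labels' protocols, RNA of frozen livers was isolated with Trizol and columns, depleted of ribosomal RNA and turned into strand-specific libraries. The deposited table holds whole-number counts per gene and library and, per the file headers, FPKM values made by the authors, which were checked to equal count over gene length and library total. Per the submitters' processing notes, coordinates follow mm10; aligner, counting tool and strand setting are not given in the sources used here. Starts in the table count from 0 and were printed after adding 1, which equals the GENCODE M21 start for 52 of 67 members.

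Genes were kept by filterByExpr (minimum count 10, minimum total 15), which left 14736 of them. TMM scaling and edgeR 4.0.16 (glmQLFit, glmQLFTest, R 4.3.3) were applied to the counts, with 4 group means over all 12 libraries. The common BCV came to 0.119. A gene counts as called where its p, adjusted over all tested genes by Benjamini-Hochberg, is under 0.05. Errors beside log2 units (log2 fold changes) are standard errors; those beside CPM or FPKM are SDs over 3 livers. FPKM served only for levels between genes. The heatmap used a pseudocount of 0.5. The pipeline was tested on simulated data.

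Alternatives were RLE scaling, no filter, the replicate number as a block, DESeq2 1.42.0, a fit without the groups not compared, and the omission of single libraries, which makes 11 settings per comparison of 2 groups. Named genes were a core of 23 members and all called members, with per-liver values for the core and up to 12 called members per comparison, and up to 4 called members per pathway list. The members and lists were chosen with earlier results of these data known. The pathway lists were collagen processing, glycoproteins and proteoglycans, matrix receptors, TGF-beta signalling and other matrix proteases. Sequences came from RefSeq promoter windows and GENCODE transcripts, read with Python 3.11.15. Counting error limits genes under about 10 counts.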

Additional observations from a re-analysis of the deposited data

Results flagged for a closer look

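Col6a2, a chain of collagen VI, was the member for which the effect of the diet differed between the genotypes by a test of the difference itself. The interaction of genotype and diet was -1.30 ± 0.28 log2 units (edgeR adjusted p = 0.0487), a value of -1.3 on the log2 scale. Col6a2 averaged 8.98 ± 1.91 CPM in KO HFCF and 9.27 ± 1.67 CPM in KO chow livers, and 7.01 ± 0.807 CPM in WT HFCF and 2.92 ± 0.578 CPM in WT chow livers. The diet gave -0.038 ± 0.18 log2 units in KO and 1.26 ± 0.21 log2 units in WT. The call was kept under 4 of 16 alternatives, and the adjusted p ranged from 0.00291 with DESeq2 to 0.114 without WT chow replicate 3.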

How the results depend on the processing

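The 21 calls for the diet in WT stayed between 12 and 24 when single livers were left out, the 29 for KO on chow between 17 and 23, the 10 for KO on HFCF between 3 and 9, the 0 for the diet in KO between 0 and 3 and the 1 of the interaction between 0 and 5. With DESeq2 the diet in KO gave 2 calls and the interaction 9. A fit of the compared groups alone gave 2 for the diet in KO and 5 for KO on HFCF. RLE scaling and no filter left every count of members as it was. With the replicate number as a block the counts were 22 for the diet in WT, 0 in KO, 30 for KO on chow, 9 on HFCF and 0 for the interaction. Deviations of same-numbered livers from their group means correlated at -0.148 to 0.167. The 3 correlations were all above 0 for the diet in WT (0.0808, 0.167 and 0.108) and all below 0 for the diet in KO. Livers with different numbers were not compared, so these values cannot tell whether the numbers pair the samples. No called member changed its sign under any alternative, and the medians over the members stayed within 0.55 to 0.69 for KO on chow and 0.40 to 0.53 for the diet in WT when single livers were left out. Members with few counts, such as Timp1, Lox, Mmp13, Mmp9 and Adamts4, limit what can be shown at this depth.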

Other observations

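Several genes of a list of matrix receptors were higher in KO livers on both diets. Of 12 receptor genes tested, 6 rose and 0 fell in KO on chow, 5 rose and 0 fell in KO on HFCF, 0 were called for the diet in KO and 1 rose with the diet in WT. Of all genes, 15.5% were called in KO on chow, 19.1% in KO on HFCF, 2.65% for the diet in KO and 13.7% for the diet in WT. Itgav and Itgb1 encode integrin chains. Itgav averaged 61.6 ± 1.51 CPM in KO HFCF and 46.1 ± 2.65 CPM in WT HFCF livers (0.42 ± 0.069 log2 units, edgeR adjusted p = 0.000900), and 65.5 ± 3.77 CPM in KO chow and 49.95 ± 1.45 CPM in WT chow livers (0.39 ± 0.069 log2 units, edgeR adjusted p = 0.00235). Itgb1 gave 0.38 ± 0.068 log2 units (edgeR adjusted p = 0.00164) on HFCF and 0.36 ± 0.068 log2 units (edgeR adjusted p = 0.00379) on chow. Ddr2, a receptor tyrosine kinase for fibrillar collagen, rose by 0.68 ± 0.12 log2 units (edgeR adjusted p = 0.00238) in KO on chow. The list's medians were 0.38 in KO on chow, 0.37 in KO on HFCF, -0.059 for the diet in KO and -0.013 for the diet in WT.

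Genes of TGF-beta signalling and of other matrix proteases were also read out. Of 23 TGF-beta genes, 7 rose and 0 fell in KO on chow, 4 rose and 3 fell in KO on HFCF, 0 were called for the diet in KO, and 6 rose and 2 fell with the diet in WT, beside the same shares of all genes. Ltbp2, a latent TGF-beta binding protein, averaged 6.05 ± 0.892 CPM in KO chow and 0.989 ± 0.321 CPM in WT chow livers (2.60 ± 0.24 log2 units, edgeR adjusted p = 1.63e-05). Bmp7 averaged 1.03 ± 0.272 CPM in KO HFCF and 3.58 ± 0.745 CPM in WT HFCF livers, which gave -1.80 ± 0.25 log2 units (edgeR adjusted p = 0.000282), and rose by 1.23 ± 0.24 log2 units (edgeR adjusted p = 0.00458) with the diet in WT. Of 18 plasmin, cathepsin and ADAM genes, 8 rose and 0 fell in KO on chow, beside 15.5% of all genes called. In KO on HFCF 6 rose and 0 fell, beside 19.1%, and 0 were called for the diet in KO, beside 2.65%. With the diet in WT 2 rose and 1 fell, a share near the 13.7% of all genes in that comparison. Ctss, the macrophage cathepsin S, averaged 101 ± 6.96 CPM in KO HFCF and 53.3 ± 21.9 CPM in WT HFCF livers (0.93 ± 0.20 log2 units, edgeR adjusted p = 0.00556). Ctsl, cathepsin L, fell by 0.55 ± 0.10 log2 units (edgeR adjusted p = 0.00303) with the diet in WT and gave 0.15 ± 0.10 log2 units (edgeR adjusted p = 0.453) in KO, an interaction of 0.71 ± 0.14 log2 units (edgeR adjusted p = 0.0423).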
